A study of Mus musculus with 9 samples.

Results

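The genes described are 10 of the 55418 gene symbols counted in 66cl4, a line of mouse breast tumour cells labelled triple negative, that is, lacking the hormone receptors and Her2 gain by which breast tumours are typed. They are the 4 Notch receptors (Notch1 to Notch4), 4 ligands (Jag1, Jag2, Dll1 and Dll4) and the target genes Hey1 and Hey2, taken by symbol from the count table. They were chosen by earlier results of these same libraries, among them a high Notch1 with both Eya3 hairpins and Hey2 counts with a single hairpin. Levels, fold changes and counts of these 10 genes are therefore descriptions and carry no p-value, and how many of them passed the threshold used for all genes is counted once, as a description.

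Messenger RNA was measured in 9 libraries from cultured cells, 3 labelled as biological replicates in each of 3 groups. SCR cells carried a scrambled short hairpin RNA, shEya3_KD1 cells a first hairpin named for Eya3, and shEya3_KD2 cells a second. Every group was transduced with a hairpin vector and then kept in puromycin at 2.5 ug/ml, so the controls share the vector and the drug. The design asked what changes in these cells when Eya3, a transcriptional co-activator and phosphatase that works with homeodomain proteins of the Six-family, is lowered. The model is a single tumour line grown without stroma, and the labels describe neither clones nor separate cultures, so p-values given for other genes cover the spread between these libraries.

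Library totals lay between 27758862 and 52691960 counts, and 15914 genes passed the filter on low counts. As a mean ± SD of 3 libraries in counts-per-million (CPM), Eya3 was at 72.9 ± 5.56 CPM in SCR, 23.1 ± 1.71 CPM in shEya3_KD1 and 37.5 ± 3.02 CPM in shEya3_KD2. Of the mammary epithelial markers, Krt8, a luminal keratin, was at 679 ± 20.8 CPM in SCR, while Epcam had 0 counts throughout and Cdh1 (E-cadherin) stayed at or below 0.259 CPM. Krt18, the partner of Krt8, was at 0.0277 ± 0.0103 CPM in SCR, 0.955 ± 0.0225 in shEya3_KD1 and 2.62 ± 0.478 in shEya3_KD2. The basal keratins were at 0.0211 ± 0.0198, 0.506 ± 0.0766 and 0.0332 ± 0.00836 CPM (Krt5) and at 1.32 ± 0.497, 0.561 ± 0.163 and 11.8 ± 1.93 CPM (Krt14). The 6 epithelial markers summed to 658 to 697 CPM in the SCR libraries, 1223 to 1372 in shEya3_KD1 and 765 to 870 in shEya3_KD2, nearly all of it Krt8. Macrophage markers summed to 75.6 to 78.6, 34.6 to 39.3 and 32.8 to 39.5 CPM, fibroblast markers to 28.3 to 35.2, 42.6 to 45.3 and 28.5 to 40.9 CPM, and lymphocyte markers to 0.865 to 1.11, 1.35 to 1.54 and 0.554 to 0.702 CPM in the same order. C1qa, C1qc and Thy1 had no counts in any library. The sums hide opposite log2 fold changes (shEya3_KD1, shEya3_KD2 against SCR). Of 5 macrophage markers tested, Cd14 (-1.93, -1.28), Lyz2 (-0.62, -1.79) and Ptprc (-1.62, -3.85) were lower with both. C1qb was higher (3.15, 3.58), and Cd68 went both ways (-1.46, 0.32). Of 3 fibroblast markers tested, Col1a1 was lower (-1.48, -0.60). Col1a2 (5.70, 0.46) and Pdgfra (0.44, 0.24) were higher, past the threshold only with shEya3_KD1. The part of these markers in the results that follow was not tested.

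Notch receptors are single-pass membrane proteins activated by ligands of the Jagged and Delta-like families on neighbouring cells. Binding leads to cleavage by an ADAM protease and then by gamma-secretase, which frees the intracellular domain to enter the nucleus, join the DNA-binding protein Rbpj and switch on genes such as those of the Hes and Hey families of repressors. In the mammary gland Notch signalling takes part in luminal fate, and in blood vessels Notch4, Dll4 and the Hey genes are prominent.

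Promoter sequences are shown for the members with the largest differences between groups and for Jag1, because Notch targets are bound through Rbpj and Eya proteins act through Six-family factors. RefSeq (assembly GRCm38.p6, whose chromosomes mm10 uses) gave 10 windows for 9 of the 10 members, each running from 250 bases before the start that RefSeq table uses. For Notch1 that start lies inside the gene's span in the mm10 annotation, downstream of its outermost start. Capitals mark a match to GTGGGAA, a core of the sequence Rbpj binds, or to TCAGGTT, a core of the MEF3 sequence that Six-family proteins bind, searched on both strands. The windows printed are chr10:30842774-30843033 (minus strand, Hey2), chr2:26503813-26504072 (minus strand, Notch1), chr17:34564045-34564304 (plus strand, Notch4) and chr2:137116511-137116770 (minus strand, Jag1).
Hey2: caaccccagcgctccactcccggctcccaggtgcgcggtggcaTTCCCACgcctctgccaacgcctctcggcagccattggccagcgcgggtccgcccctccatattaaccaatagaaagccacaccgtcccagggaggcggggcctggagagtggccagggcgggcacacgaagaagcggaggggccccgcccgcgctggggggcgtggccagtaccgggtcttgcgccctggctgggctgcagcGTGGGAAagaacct
Notch1: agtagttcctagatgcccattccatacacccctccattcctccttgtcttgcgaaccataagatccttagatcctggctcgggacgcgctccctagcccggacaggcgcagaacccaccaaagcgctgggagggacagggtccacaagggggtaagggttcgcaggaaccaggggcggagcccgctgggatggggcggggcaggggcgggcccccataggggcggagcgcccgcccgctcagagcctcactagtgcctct
Notch4: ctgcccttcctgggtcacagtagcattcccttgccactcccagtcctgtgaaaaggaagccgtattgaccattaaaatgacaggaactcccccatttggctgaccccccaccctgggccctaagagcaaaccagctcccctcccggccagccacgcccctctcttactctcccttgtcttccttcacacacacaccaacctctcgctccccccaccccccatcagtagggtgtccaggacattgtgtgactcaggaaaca
Jag1: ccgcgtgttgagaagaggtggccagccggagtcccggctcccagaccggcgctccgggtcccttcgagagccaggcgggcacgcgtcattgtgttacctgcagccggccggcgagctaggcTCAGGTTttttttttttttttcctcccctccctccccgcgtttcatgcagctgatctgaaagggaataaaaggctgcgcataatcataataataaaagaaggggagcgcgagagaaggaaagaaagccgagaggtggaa

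Hey2 held 2 matches to GTGGGAA, at -207 to -201 on the reverse strand and at -4 to 3 on the forward strand, counted from the RefSeq start. No other member window matched it, and 2097 of 32851 mouse promoter windows of the same length (6.38%) did. Jag1 held the only match to TCAGGTT among the members, at -129 to -123, against 4.07% of all windows. A match describes letters in the window and not binding, which was not measured here.

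The windows also differed in base composition. Over 300 bases the Notch4 window had 5 CpG dinucleotides and 58.3% GC, against a median of 7 CpG and 52.7% GC over all windows. The Notch1 window had 23 CpG and 68.3% GC, that of Hey2 29 and 72.0%, and that of Notch2 41 and 73.0%. Jag2 was highest, with 63 CpG and 86.0% GC. CpG-rich windows thus belonged to genes that were high in every group (Notch2) and to genes near 0 in SCR (Notch1, Hey2).

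Scaled by exon length, Notch2 was the most abundant receptor transcript in every group, and Jag1 the most abundant ligand transcript. In SCR, Notch2 stood at 11.9 ± 1.70 CPM per kb of exon (mean ± SD, n = 3), Jag1 at 2.30 ± 0.224, Notch4 at 1.05 ± 0.223, Hey1 at 0.965 ± 0.183 and Jag2 at 0.938 ± 0.0937 CPM per kb. The last 3 lay within their spread of each other, while Notch2 and Jag1 lay above them. Notch1 followed at 0.0358 ± 0.00682, then Notch3 at 0.0188 ± 0.00911 and Dll4 at 0.0119 ± 0.0106 CPM per kb, and these last values overlapped. Dll1 and Hey2 had no counts in SCR.

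In shEya3_KD1 the order below Notch2 (14.3 ± 1.91 CPM per kb) and Jag1 (2.65 ± 0.131) became Jag2 (1.11 ± 0.107), then Hey1 (0.550 ± 0.0767) and Notch1 (0.505 ± 0.0679) within their spread, then Hey2 (0.313 ± 0.0187) and Notch4 (0.120 ± 0.0175). Below them, Dll4 (0.0219 ± 0.00872), Dll1 (0.0116 ± 0.0118) and Notch3 (0.0034 ± 0.0036) rested on 10 counts or fewer. In shEya3_KD2 it was Notch2 (13.4 ± 2.80), Jag1 (3.44 ± 0.336), then Jag2 (0.844 ± 0.162), Notch1 (0.705 ± 0.274) and Hey1 (0.510 ± 0.196) with overlapping spreads, then Notch4 (0.326 ± 0.116), then Dll4 (0.0377 ± 0.0103), with Notch3 (0.0026 ± 0.0024) and Dll1 (0.0019 ± 0.0032) within their spread of each other and Hey2 again without counts. Notch4 and Notch1 thus exchanged places between SCR and either hairpin.

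Of the 10 members, 7 passed the filter on low counts: Notch3, Dll1 and Dll4 did not, and Hey2 passed only through its shEya3_KD1 counts. In shEya3_KD1 against SCR, 2 of these 7 (Notch1, Hey2) were higher and 2 (Notch4, Hey1) lower past the threshold (adjusted p of 0.05 in edgeR's quasi-likelihood test), where 24.1% of all genes tested were higher and 26.2% lower. In shEya3_KD2 against SCR it was 2 higher (Notch1, Jag1) and 2 lower (Notch4, Hey1), beside 23% and 22.3% of all genes. Between the hairpins 2 were higher (Notch4, Jag1) and 2 lower (Jag2, Hey2) in shEya3_KD2 than in shEya3_KD1, beside 27% and 22.5%, and Jag2 was not counted without shEya3_KD1 replicate 1, shEya3_KD2 replicate 1 or shEya3_KD2 replicate 3. The comparisons with SCR share the 3 SCR libraries, and since they helped choose the members these counts are no test and nothing is read from them.

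**Figure D1:**
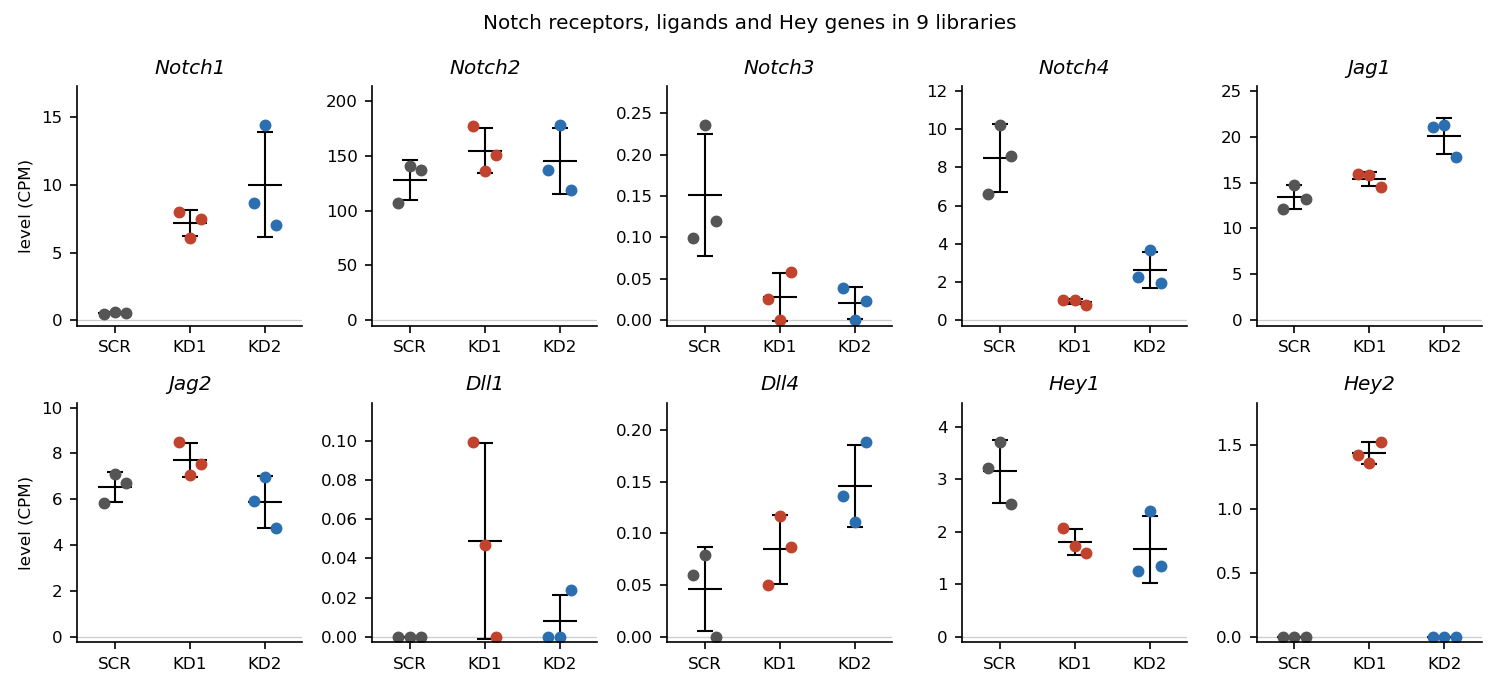
Each panel plots the level of a member in CPM (vertical axis, from 0, scaled per gene) in the 3 libraries of SCR, shEya3_KD1 (KD1) and shEya3_KD2 (KD2); points are libraries in the order of replicates 1 to 3, and bars the mean ± SD. Notch1 is at 0.416 to 0.610 CPM in SCR and above 6 CPM in the other libraries, Notch4 goes the other way, and Hey2 has counts in shEya3_KD1 alone.

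Notch1, a receptor with wide roles in fate choice and in mammary luminal cells (mm10, chromosome 2, 26457903 to 26516663, minus strand), was nearly silent in SCR and was read in 260 to 444 counts per library with either hairpin. It stood at 0.416, 0.610 and 0.505 CPM in SCR replicates 1 to 3, a total of 73 counts. In shEya3_KD1 it was at 7.97, 6.11 and 7.49 CPM (840 counts), and in shEya3_KD2 at 8.66, 14.4 and 7.01 CPM (1132 counts). Every hairpin library lay above every SCR library, and the libraries of the hairpins overlapped.

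The means were 14.1-fold (shEya3_KD1) and 19.7-fold (shEya3_KD2) that of SCR. The fitted log2 fold changes of Notch1 were 3.81 ± 0.32 (SE) and 4.26 ± 0.32. Between the hairpins the difference was 0.46 ± 0.23, with an unadjusted 95% interval of 0.0076 to 0.90, and ran from 0.13 to 0.66 with each library left out. The hairpin that left more Eya3 thus had the higher mean of Notch1, by a difference within the libraries' spread. In RNA from a whole culture, a change in the share of cells expressing a gene and a change in RNA per cell cannot be told apart.

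The high Notch1 value of shEya3_KD2 replicate 2 came from the shallowest library. In that library genes with more than 8 kb of exon, as Notch1 has, lay 0.117 above their group mean on the log2 scale (median of 1927 genes), and in replicate 3 they lay at -0.11. The part of this in the Notch1 values was not tested. Without shEya3_KD2 replicate 2 the Notch1 difference from SCR was 3.94 on the log2 scale. Exons of Notch1 also share 1068 bases (7.50% of their length) with 0610009E02Rik on the opposite strand, which had 36 counts in SCR, 17 in shEya3_KD1 and 25 in shEya3_KD2.

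Notch4, a receptor best known from endothelial cells and, in mice, as a site of mammary tumour virus insertion (mm10, chromosome 17, 34564268 to 34588503, plus strand), was lower with both hairpins. It stood at 6.63, 10.2 and 8.61 CPM in SCR, at 1.05, 1.05 and 0.807 CPM in shEya3_KD1 and at 2.24, 3.69 and 1.94 CPM in shEya3_KD2. No library of one group reached into another, and shEya3_KD1, with the least Eya3, had the least Notch4. The level of Eya3 and other differences between the hairpin lines cannot be told apart here. The means were 11.4% and 30.9% of that of SCR, and the log2 fold changes -3.12 ± 0.24 and -1.75 ± 0.21. The log2 difference between the hairpins was 1.37 ± 0.28, with shEya3_KD2 above shEya3_KD1.

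Notch2, the receptor with the highest level (mm10, chromosome 3, 98013527 to 98150361, plus strand), had overlapping groups in every comparison. It stood at 107, 140 and 137 CPM in SCR, at 177, 136 and 151 CPM in shEya3_KD1 and at 138, 178 and 119 CPM in shEya3_KD2. Its log2 fold changes were 0.27 ± 0.16 and 0.18 ± 0.16.

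Notch3, a receptor typical of mural cells of vessels (mm10, chromosome 17, 32120820 to 32166852, minus strand), was read in few counts. It had 22 counts over the SCR libraries (0.0990, 0.236 and 0.120 CPM) and 3 each over shEya3_KD1 (0.0250, 0 and 0.0576 CPM) and shEya3_KD2 (0.0390, 0 and 0.0236 CPM). Each SCR library lay above each hairpin library. SCR was 6.03 times shEya3_KD1 (95% counting interval 1.81 to 31.4) and 6.19 times shEya3_KD2 (1.86 to 32.3).

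As a share of the summed level of the 4 receptors per kb of exon, Notch2 took 91.5 ± 0.749% in SCR, 95.8 ± 0.145% in shEya3_KD1 and 93.0 ± 1.05% in shEya3_KD2. Notch4 took 8.06 ± 0.676%, 0.812 ± 0.158% and 2.21 ± 0.294%. Notch1 took 0.275 ± 0.0213%, 3.37 ± 0.197% and 4.76 ± 0.776%. Notch1 thus passed Notch4 as the receptor next to Notch2 with either hairpin, while remaining at 4.76% or less of the summed level.

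**Figure D2:**
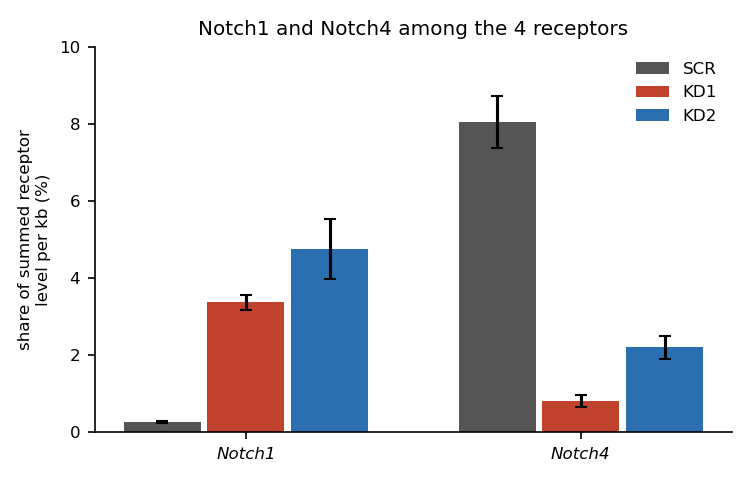
Bars give the mean share of the summed level of the 4 Notch receptors per kb of exon (percent, axis from 0) for Notch1 and Notch4 in SCR, shEya3_KD1 (KD1) and shEya3_KD2 (KD2), with the SD over 3 libraries. Notch4 goes from 8.06% to 0.812% and 2.21%, and Notch1 from 0.275% to 3.37% and 4.76%.

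Among the ligands, Jag1 was higher with shEya3_KD2. Jag1 (mm10, chromosome 2, 137081456 to 137116644, minus strand) stood at 12.2, 14.7 and 13.2 CPM in SCR, at 16, 15.8 and 14.6 CPM in shEya3_KD1 and at 21, 21.3 and 17.8 CPM in shEya3_KD2. The shEya3_KD2 libraries lay above the others, and SCR and shEya3_KD1 overlapped. The log2 fold change was 0.58 ± 0.09 for shEya3_KD2 and 0.21 ± 0.09 for shEya3_KD1. Between the hairpins Jag1 was 0.37 ± 0.09 higher in shEya3_KD2.

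Jag2, the other Jagged ligand (mm10, chromosome 12, 112907819 to 112929776, minus strand), overlapped SCR with either hairpin. It stood at 5.82, 7.10 and 6.69 CPM in SCR, at 8.52, 7.04 and 7.55 CPM in shEya3_KD1 and at 5.93, 6.98 and 4.72 CPM in shEya3_KD2. The hairpins did not overlap each other. The log2 fold changes were 0.24 ± 0.13 and -0.17 ± 0.13. The difference between the hairpins, -0.41 ± 0.13, was -0.27 without shEya3_KD2 replicate 3.

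The Delta-like ligands were close to absent. Dll4, the ligand that acts in vessel sprouting (mm10, chromosome 2, 119325784 to 119335962, plus strand), had 7 counts in SCR (0.0594, 0.0787 and 0 CPM), 10 in shEya3_KD1 (0.05, 0.117 and 0.0865 CPM) and 18 in shEya3_KD2 (0.137, 0.111 and 0.189 CPM). The shEya3_KD2 libraries lay above those of SCR, at levels too low to enter the fit. Dll1 (mm10, chromosome 17, 15367354 to 15376872, minus strand) had no counts in SCR, 6 in shEya3_KD1 (0.0999, 0.0468 and 0 CPM) and 1 in shEya3_KD2. Of the 6 counts, 4 came from replicate 1, so no fold is given against SCR. The ratio of shEya3_KD1 to shEya3_KD2 was 6.17 (95% counting interval 0.748 to 284), an interval that spans no difference.

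The Hey genes, which encode repressors that carry out much of the Notch response in heart and vessels, went in different directions. Hey1 (mm10, chromosome 3, 8663359 to 8667256, minus strand) stood at 3.21, 3.72 and 2.52 CPM in SCR, at 2.07, 1.73 and 1.59 CPM in shEya3_KD1 and at 1.25, 2.40 and 1.35 CPM in shEya3_KD2. Every hairpin library lay below every SCR library, and the hairpins overlapped. The log2 fold changes were -0.81 ± 0.22 and -0.99 ± 0.22, and the difference between the hairpins was -0.18 ± 0.24.

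Hey2 (mm10, chromosome 10, 30832359 to 30842801, minus strand) had counts with shEya3_KD1 alone. It stood at 1.42, 1.36 and 1.53 CPM there, a total of 168 counts, and had 0 counts in all SCR and all shEya3_KD2 libraries. With each empty group set at 3 counts, which is 0.0210 CPM in SCR and 0.0249 CPM in shEya3_KD2, Hey2 was at least 68.2-fold higher in shEya3_KD1 than in SCR and at least 57.5-fold higher than in shEya3_KD2. Against SCR the hairpins thus shared the higher Notch1 and the lower Notch4 and Hey1. They differed from each other at Hey2 and, by less, at Notch4, Jag1 and Jag2. Notch1 and Hey2 were among the results that chose the members, so this in part restates that choice.

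**Figure D3:**
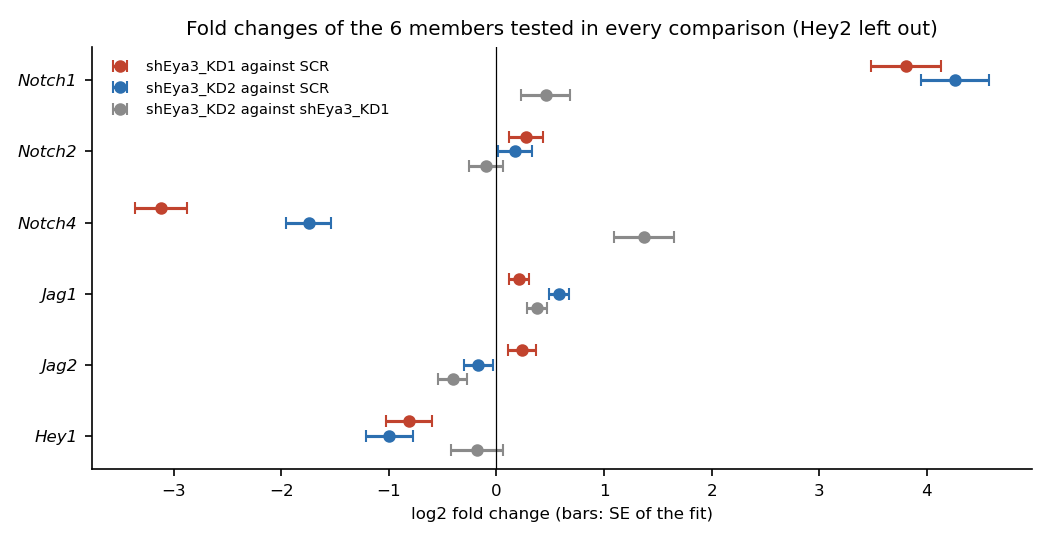
Points give log2 fold changes (horizontal axis) of 6 members in the 3 comparisons, with bars for the SE of the fit. Notch1 lies at 3.81 and 4.26 against SCR and Notch4 at -3.12 and -1.75, while Notch2 and Jag2 lie within 0.3 of 0 against SCR; Hey2 is left out because its fold is known only as a lower bound.

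Genes of vessel cells were read beside Notch4 and Hey2, which those cells express. Of 13 endothelial markers, the summed level was 5.23 to 6.18 CPM in the SCR libraries, 4.62 to 5.64 CPM in shEya3_KD1 and 2.79 to 3.73 CPM in shEya3_KD2. Cldn5 and Sox17 had no counts in any library and Kdr (the main VEGF receptor) none with either hairpin. Cdh5, the cadherin of endothelial junctions, fell with both hairpins, from 3.72 ± 0.263 to 0.264 ± 0.0331 and 2.13 ± 0.289 CPM. So did Tie1 (log2 fold changes -1.99 ± 0.36 and -2.81 ± 0.41). Flt1 rose with shEya3_KD1 (0.72 ± 0.17) and fell with shEya3_KD2 (-0.90 ± 0.20). Vwf rose with shEya3_KD1 (1.62 ± 0.33), as did Emcn, and neither was called with shEya3_KD2. Among the 5 endothelial markers tested, 3 were called higher and 2 lower in shEya3_KD1, beside 24.1% and 26.2% of all genes tested. In shEya3_KD2 3 were called lower, beside 22.3% of all genes.

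Of 10 mural markers, the summed level was 10.0 to 11.5 CPM in SCR, 15.6 to 19.2 CPM in shEya3_KD1 and 7.29 to 9.12 CPM in shEya3_KD2, with Kcnj8 at 0 in every library and Rgs5 at 0 in SCR and shEya3_KD2. Pdgfrb, the PDGF receptor of pericytes and fibroblasts, was at 0.605 ± 0.145, 11.8 ± 1.65 and 2.77 ± 0.961 CPM. Among the 4 mural markers tested, 3 were called higher and 1 lower with shEya3_KD1, beside 24.1% and 26.2% of all genes tested. With shEya3_KD2 2 were higher and 1 lower, beside 23% and 22.3%. The lower marker was Des with both hairpins (log2 fold changes -1.38 ± 0.11 and -1.12 ± 0.10). The part of such markers in the values of Notch4, Notch3 and Hey2 was not tested.

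The genes whose pattern over the 9 libraries was most like that of Hey2, by the root mean square difference of log2 CPM relative to SCR, were Etfbkmt (0.25), Emcn (0.33), Col5a2 (0.34), Col1a2 (0.34) and P3h2 (0.37). Etfbkmt, a lysine methyltransferase gene, was at 0 in SCR and shEya3_KD2 and at a mean of 1.91 CPM in shEya3_KD1. Col5a2, a fibrillar collagen chain, was at 0.820, 27.9 and 0.638 CPM. Emcn, the endothelial sialomucin, was at 0.0132 CPM in SCR, 2.24 CPM in shEya3_KD1 and 0 in shEya3_KD2. Nearest to Notch1 were AC124108.1 (0.46), Ptgds (0.49), Epha4 (0.53), Adm2 (0.54) and Serpina9 (0.56). Ptgds, which makes prostaglandin D2, was at 1.72, 20.9 and 18.8 CPM, and Epha4, an ephrin receptor, at 0.0663, 0.895 and 1.63 CPM.

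The rest of the pathway was read through 79 genes in 5 lists that hold none of the members, of which 65 were tested. These lists too were chosen with earlier results of these data known, so their calls and adjusted p-values are not independent tests. With shEya3_KD1 20 rose and 18 fell, where 24.1% and 26.2% of all genes tested did, with a median log2 fold change of 0.03 against 0.014 over all genes tested. With shEya3_KD2 27 rose and 10 fell, beside 23% and 22.3% of all genes (median 0.17, against -0.0044 over all genes). Between the hairpins 29 were higher and 14 lower in shEya3_KD2, beside 27% and 22.5% (median 0.13, against 0.0030). The calls come from the edgeR fit, adjusted over all genes by the Benjamini-Hochberg method, as do the adjusted p-values that follow.

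**Figure D4:**
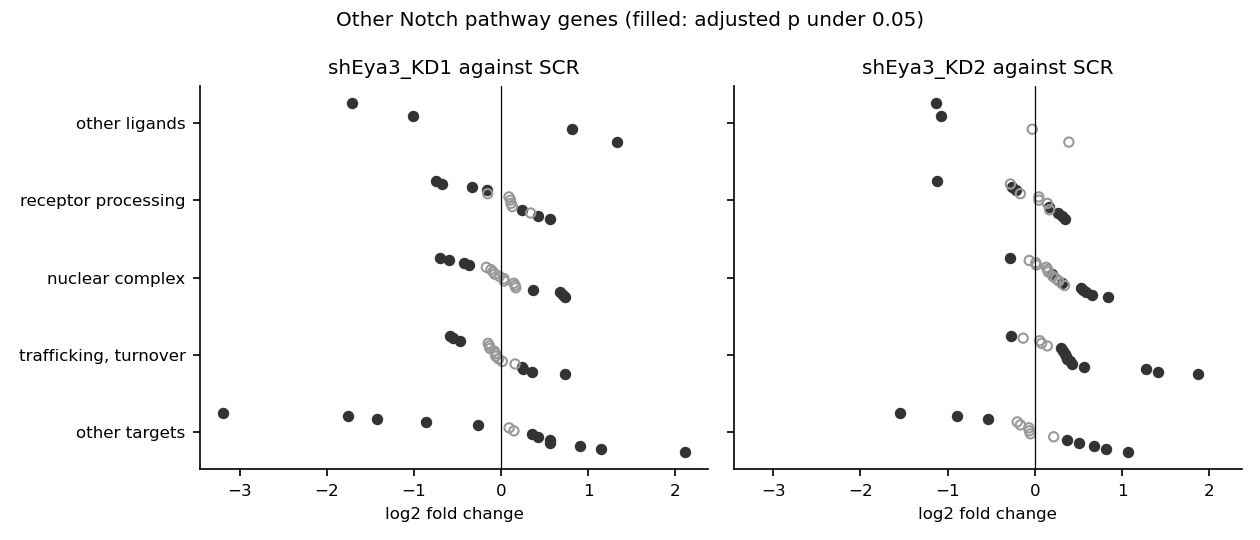
Each point is the log2 fold change (horizontal axis) of a tested gene in the 5 lists of other Notch pathway genes, for shEya3_KD1 (left) and shEya3_KD2 (right) against SCR; filled points have an adjusted p under 0.05. Most genes of trafficking and turnover lie to the right of 0 with shEya3_KD2 (11 higher and 1 lower of 16), and the target genes spread to both sides.

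Targets of Notch outside the Hey pair moved both ways: of 14 tested, shEya3_KD1 had 7 higher and 5 lower, and shEya3_KD2 had 5 higher and 3 lower, where 24.1% and 26.2%, and 23% and 22.3%, of all genes were called. Dtx1, a Deltex gene that is both a target and a regulator of Notch, fell from 3.74 ± 0.741 CPM to 0.404 ± 0.0752 with shEya3_KD1 (log2 fold change -3.19 ± 0.23, adjusted p = 1.77e-08, edgeR) and to 1.32 ± 0.267 CPM with shEya3_KD2 (-1.54 ± 0.19, adjusted p = 1.12e-05, edgeR). Its libraries ran from 3.05 to 4.52 CPM in SCR, from 0.317 to 0.450 in shEya3_KD1 and from 1.16 to 1.63 in shEya3_KD2, so no groups overlapped, as with Notch4. Snai2, a repressor of epithelial genes, fell from 27.3 ± 1.91 to 10.2 ± 0.537 and 14.7 ± 0.854 CPM (-1.42 ± 0.08 and -0.89 ± 0.08).

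Other targets rose with both hairpins. Efnb2, the ephrin of arterial cells, went from 85.8 ± 2.26 to 190 ± 10.3 and 151 ± 8.82 CPM (1.15 ± 0.07 and 0.82 ± 0.07 on the log2 scale). Trib2, a pseudokinase and Notch target in leukaemia, rose from 5.20 ± 1.08 to 22.6 ± 1.39 CPM with shEya3_KD1 (2.11 ± 0.16, adjusted p = 1.55e-07, edgeR) and to 8.48 ± 1.9 CPM with shEya3_KD2 (0.68 ± 0.16, adjusted p = 0.00453, edgeR). Gata3, a transcription factor of luminal and T cells, went from 48.4 ± 2.89 to 90.4 ± 10.5 and 101 ± 11 CPM (0.90 ± 0.09 and 1.07 ± 0.09). Cdkn1a, the cell cycle inhibitor p21, also rose with both (0.36 ± 0.07 and 0.37 ± 0.07).

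The remaining tested targets include genes outside the rule for named genes, given so that all 14 are accounted for, and Hes1 and Nrarp were chosen for detail after their values were seen. Hes1, a repressor of the Hes family, stood at 9.19, 8.69 and 8.66 CPM in SCR, at 12.4, 11.8 and 11.4 CPM in shEya3_KD1 and at 6.77, 6.83 and 4.74 CPM in shEya3_KD2, with no overlap between groups (0.43 ± 0.11 and -0.54 ± 0.12 against SCR). Nrarp, a feedback inhibitor that binds the Notch complex, stood at 29.0, 30.7 and 29.2 CPM in SCR, at 46.2, 45.9 and 39.2 CPM in shEya3_KD1 and at 26.6, 28.3 and 24.4 CPM in shEya3_KD2 (0.56 ± 0.08 and -0.17 ± 0.08, the latter not called). Both were highest in shEya3_KD1.

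Hes7, another Hes repressor, was lowest in shEya3_KD1, at 0.226 ± 0.134 CPM against 0.786 ± 0.133 in SCR and 0.681 ± 0.203 in shEya3_KD2 (-1.75 ± 0.36, adjusted p = 0.000881, edgeR, and -0.20 ± 0.30). Hes6 was called with neither hairpin (0.15 ± 0.11 and 0.22 ± 0.11). Myc rose with shEya3_KD2 (0.51 ± 0.07) and stood at 0.09 ± 0.07 with shEya3_KD1, while the cyclin gene Ccnd1 rose with shEya3_KD1 (0.56 ± 0.07) and stood at -0.05 ± 0.07 with shEya3_KD2. Nfkb2 and Ccnd3 fell with shEya3_KD1 (-0.87 ± 0.08 and -0.27 ± 0.09) and were not called with shEya3_KD2 (-0.07 ± 0.08 and -0.06 ± 0.08). The targets thus shared no single direction with either hairpin.

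Whether the counting used strand is not stated, and 79.4% of the exon length of Nrarp is shared with Gm38287 on the opposite strand. Of the Hes and Hey genes not tested, Hes2 and Hes5 had no counts in any library and Heyl had 12, 5 and 0 counts in SCR, shEya3_KD1 and shEya3_KD2.

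**Figure D5:**
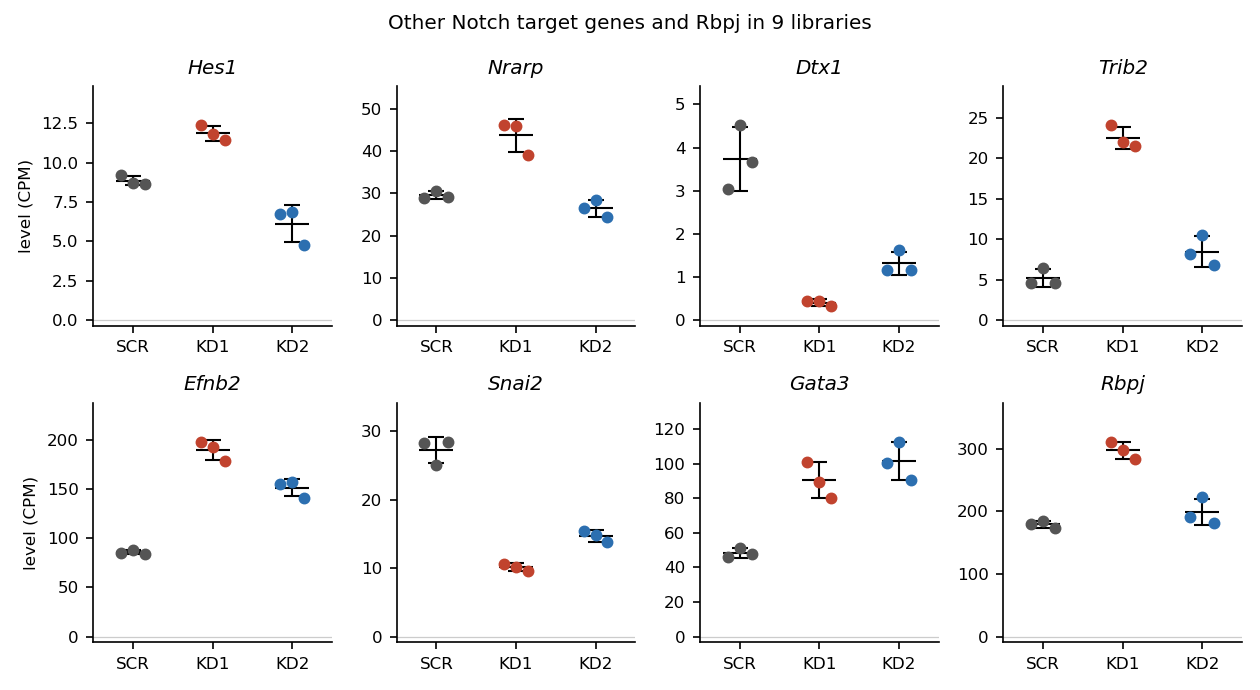
Each panel plots the level in CPM (vertical axis, from 0) of a further Notch target, or of Rbpj, in the 3 libraries of SCR, shEya3_KD1 (KD1) and shEya3_KD2 (KD2), with the mean ± SD. Hes1, Nrarp, Trib2 and Rbpj are highest in shEya3_KD1, and Dtx1 and Snai2 are highest in SCR.

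In the nuclear complex, all 18 genes were tested: shEya3_KD1 had 4 higher and 4 lower, and shEya3_KD2 had 7 higher and 1 lower, or 13 higher without shEya3_KD2 replicate 3, beside 24.1% and 26.2%, and 23% and 22.3%, of all genes. Rbpj, the DNA-binding partner of every Notch receptor, rose from 179 ± 5.47 to 297 ± 14.3 CPM with shEya3_KD1 (0.73 ± 0.08, adjusted p = 1.30e-06, edgeR) and was at 199 ± 21.3 CPM in shEya3_KD2 (0.15 ± 0.08, adjusted p = 0.129, edgeR). The acetyltransferase gene Ep300 and the Rbpj partner L3mbtl3 rose with shEya3_KD1 as well (0.70 ± 0.14 and 0.68 ± 0.11), and were not called with shEya3_KD2 (0.34 ± 0.14 and 0.24 ± 0.11). Maml1, a Mastermind co-activator, rose with shEya3_KD2 from 36.9 ± 1.98 to 65.9 ± 4.0 CPM (0.84 ± 0.09, adjusted p = 2.83e-06, edgeR) and was at 37.7 ± 4.97 CPM in shEya3_KD1. Maml2, its relative, fell to 7.77 ± 1.17 CPM with shEya3_KD1 and rose to 19.1 ± 3.78 CPM with shEya3_KD2 from 12.6 ± 1.46 CPM (-0.70 ± 0.15 and 0.59 ± 0.14).

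Crebbp, the relative of Ep300, rose with shEya3_KD2 (0.65 ± 0.15), as did the co-repressor gene Spen (0.56 ± 0.18, adjusted p = 0.0320, edgeR), whose call was lost without shEya3_KD2 replicate 2 (0.34); with shEya3_KD1 the values were -0.09 ± 0.15 and -0.17 ± 0.18, not called. Spen and Crebbp have more than 8 kb of exon, as Notch1 has, and the length deviation of shEya3_KD2 replicate 2 given above applies to both. It applies as well to the other members above 8 kb (Notch2, Notch3 and Notch4) and to Rbpj, Ep300, L3mbtl3, Furin, Cntn1 and Ccnd3. Genes of that length also lay 0.073 above the group mean in shEya3_KD1 replicate 1 and at -0.049 in SCR replicate 1.

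Genes of trafficking and turnover were mostly higher with shEya3_KD2: of 16 tested 11 rose and 1 fell, where 23% and 22.3% of all genes did. Among those that rose, Numbl, Itch, Nedd4, Mib1 and Aak1 have more than 8 kb of exon, so the length deviations of the shEya3_KD2 libraries apply to them. Those deviations are taken from the group's own mean. They bear on the spread between its libraries and cannot show a shift of the group against SCR. Their part in the calls was not tested. With shEya3_KD1 4 rose and 3 fell, beside 24.1% and 26.2%. The 4 became 1 without SCR replicate 1, and 2 without SCR replicate 2, SCR replicate 3, shEya3_KD1 replicate 1 or shEya3_KD1 replicate 2. Numbl, an adaptor that lowers Notch at the membrane, fell from 8.12 ± 1.05 to 5.53 ± 0.675 CPM with shEya3_KD1 and rose to 21.5 ± 1.84 CPM with shEya3_KD2 (-0.55 ± 0.12 and 1.41 ± 0.11). Mib2, a ubiquitin ligase acting on Notch ligands, rose with shEya3_KD2 from 13.9 ± 1.71 to 33.8 ± 5.32 CPM (1.28 ± 0.11, adjusted p = 5.19e-07, edgeR) and with shEya3_KD1 to 17.8 ± 0.0976 CPM (0.36 ± 0.11, adjusted p = 0.0154, edgeR). Dtx3l, a Deltex family ligase, rose with shEya3_KD2 from 39.8 ± 1.63 to 146 ± 40.5 CPM (1.87 ± 0.16) and was at 39.0 ± 2.86 CPM in shEya3_KD1, and it shares 8.0% of its exon length with Parp9 on the opposite strand.

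Neurl1b, a Neuralized ligase for Notch ligands, rose with both hairpins (0.73 ± 0.10 and 0.57 ± 0.10). Epn1 and Epn2, epsins that help ligand-bearing cells take up ligand, fell with shEya3_KD1 (-0.47 ± 0.07 and -0.59 ± 0.07). With shEya3_KD2 Epn1 rose (0.34 ± 0.07) and Epn2 was not called (0.08 ± 0.07).

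In receptor processing, 13 of 15 genes were tested, with 3 higher and 4 lower for shEya3_KD1 and 4 higher and 3 lower for shEya3_KD2, shares near those of all genes (24.1% and 26.2%, and 23% and 22.3%). The 4 lower became 2 without SCR replicate 2 or 3, and the 4 higher became 2 without SCR replicate 1, SCR replicate 3 or shEya3_KD2 replicate 1. Psen2, a catalytic subunit of gamma-secretase, fell with shEya3_KD2 from 1.75 ± 0.233 to 0.814 ± 0.316 CPM (-1.12 ± 0.24, adjusted p = 0.00135, edgeR) and stood at 2.22 ± 0.177 CPM in shEya3_KD1, not called. Adam10, the protease of the first cut, rose with shEya3_KD2 (0.31 ± 0.07) and was not called with shEya3_KD1 (0.11 ± 0.07). Furin, which cleaves the receptor on its way to the membrane, fell with shEya3_KD1 (-0.68 ± 0.09) and was not called with shEya3_KD2 (0.17 ± 0.09). Of the gamma-secretase scaffold genes Aph1b fell (-0.75 ± 0.11) and Aph1a rose (0.43 ± 0.07) with shEya3_KD1, and neither was called with shEya3_KD2 (-0.28 ± 0.11 and 0.14 ± 0.07). Rfng, a fringe glycosyltransferase, rose with both hairpins (0.56 ± 0.09 and 0.27 ± 0.09), the second call being lost without SCR replicate 1 (0.25), SCR replicate 3 (0.20) or shEya3_KD2 replicate 1 (0.25).

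Of 10 further ligand genes 4 were tested. With shEya3_KD1 2 were called higher and 2 lower, beside 24.1% and 26.2% of all genes tested. With shEya3_KD2 2 fell, beside 22.3% of all genes. Mfap5, a microfibril protein that binds Notch1, fell from 24.5 ± 0.516 to 7.46 ± 0.506 and 11.6 ± 0.540 CPM (-1.72 ± 0.08 and -1.08 ± 0.08). Cntn6, a contactin, fell with both hairpins (-1.02 ± 0.23 and -1.13 ± 0.23), and Cntn1, its relative, rose with shEya3_KD1 (1.33 ± 0.20) and was not called with shEya3_KD2 (0.39 ± 0.21). Dlk2, a Delta-like protein without the usual receptor-binding domain, rose with shEya3_KD1 from 23.6 ± 1.01 to 41.4 ± 3.22 CPM (0.81 ± 0.07, adjusted p = 2.30e-07, edgeR) and stood at 23.1 ± 0.692 CPM in shEya3_KD2.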

How the data were processed

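Messenger RNA libraries of 66cl4 cells were prepared by the NuGEN Universal Plus mRNA-Seq protocol, according to the labels. The submitters' processing notes list FastQC, MultiQC, STAR and mm10 with no version, and the counting step (tool, annotation, strand) is not given in the sources used here. Raw counts were deposited by the authors for 55418 gene symbols, used as deposited, and each of the 9 columns matched 1 sample title. Without a stated strand, reads of overlapping genes on opposite strands cannot be told apart. Replicates of the same group were further apart than counting noise (chi-square divided by its degrees of freedom 9.24 to 45.2, on genes with 20 reads or more), so none was a repeat deposit.

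The main fit used R 4.3.3 and edgeR 4.0.16: filterByExpr kept 15914 genes, TMM factors scaled the libraries, and a robust quasi-likelihood model with the group as its term held all 9 libraries. P-values were adjusted over all genes tested (Benjamini-Hochberg, threshold 0.05). CPM used the scaled library sizes, and levels per kb the union of exons in GENCODE M21, the mm10 annotation that also gave coordinates. A group without counts was read as at or below 3 counts over its libraries, and a group with so few as 1 to 3 counts gave a ratio with an exact interval; floors and intervals cover counting error only. An exact permutation of 3 libraries against 3 reaches no p under 0.1.

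The members, the 5 pathway lists and the 6 marker lists were chosen with earlier results of these data known. The rule for named genes took the members, Eya3, up to 4 genes per pathway list and hairpin (past the threshold, at least 1 CPM in a compared group, no overlap between groups, by size of change), the nearest patterns to Notch1 and Hey2, and defining markers; 1 gene the rule names is not reported here. Alternatives were RLE factors, DESeq2 1.42.0, limma-voom (limma 3.58.1), no filter, a minimum of 5 CPM in 3 libraries, a fit on the compared groups alone, a block on the replicate number, the longest transcript as length, and each library left out. Promoter windows came from RefSeq (GRCm38.p6); Hey1 had no entry.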

Additional observations from a re-analysis of the deposited data

Results flagged for a closer look

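Of the 65 other pathway genes tested, 5 were called in opposite directions with the hairpins by edgeR's quasi-likelihood fit. The share of all genes called in opposite directions was not counted, so nothing is read from how many there were. They were picked for those opposite calls, so a difference between the hairpins follows from the choice, and the values below describe its size and are no further test. Each value is the log2 level in shEya3_KD2 minus that in shEya3_KD1. Numbl, the adaptor that lowers Notch at the membrane, differed by 1.96 ± 0.12 (SE; -0.55 with shEya3_KD1 and 1.41 with shEya3_KD2 against SCR). Maml2, the Mastermind co-activator, differed by 1.29 ± 0.15 (-0.70 and 0.59), and Epn1, the epsin, by 0.81 ± 0.07 (-0.47 and 0.34). Hes1 differed by -0.96 ± 0.12 (0.43 and -0.54), and Poglut1, which adds O-glucose to Notch receptors, by -0.50 ± 0.08 (0.24 and -0.26). The comparisons with SCR share the SCR libraries.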

How the results depend on the processing

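Of the recomputed values of single genes, 1360 kept their direction and their side of the threshold, 19 newly passed it, 17 no longer did, 4 levels moved and 5 values changed sign. The members higher with shEya3_KD1 numbered 4 with no filter or with only the groups compared, Notch2 among them, and 1 with a filter of 5 CPM in 3 libraries. That filter left 1 member lower with shEya3_KD1, 1 lower with shEya3_KD2 and 1 lower in shEya3_KD2 than in shEya3_KD1, since it removes Hey1 and Hey2. The members lower in shEya3_KD2 than in shEya3_KD1 numbered 1 to 2 with each library left out, Jag2 being lost. The values that changed sign were differences between the hairpins that were not past the threshold. With each library left out, Notch2 ran from -0.27 to 0.028 (above 0 without shEya3_KD1 replicate 1 or shEya3_KD2 replicate 3), Hey1 from -0.47 to 0.013 (above 0 without shEya3_KD2 replicate 1) and Cntn6 from -0.31 to 0.13 (above 0 without shEya3_KD1 replicate 2 or shEya3_KD2 replicate 3). With each library left out, 17 to 21 pathway genes rose and 15 to 19 fell with shEya3_KD1, and 22 to 33 rose and 9 to 11 fell with shEya3_KD2. By the longest transcript in place of the exon union, SCR levels per kb were 0.0538 for Notch1, 1.29 for Notch4, 1.28 for Jag2 and 1.30 for Hey1.

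Correlations of same-numbered libraries ran from -0.403 to 0.594. They were taken on deviations from the group means, which sum to 0 within each group, so they cannot settle whether replicate numbers pair the samples. With the replicate block, 21 pathway genes rose and 18 fell with shEya3_KD1, 26 and 11 with shEya3_KD2, and the members' counts stayed at 2 and 2 in each comparison. Depth limits Notch3, Dll1 and Dll4, each at 22 counts or fewer in any group.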
